A study of Mus musculus with 11 samples.

Results

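The genes described here are the chemokines and their receptors, read from arrays of 3 mouse tissues. Members were taken by gene symbol from array rows that pair with exactly 1 symbol, with 1 row per gene. The symbols cover the Ccl, Cxcl, Xcl1 and Cx3cl1 ligands, the Ccr and Cxcr receptors, the Ackr atypical receptors and Ccrl genes, while Cx3cr1 was left out by the rule. This gave 53 genes of the 30142 named genes on the array: 20 CC ligands, 13 CXC ligands, Xcl1, Cx3cl1, 15 conventional receptors, 2 atypical receptors and Ccrl2.

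The carotid body (CB) is the arterial organ that senses blood oxygen, the adrenal medulla (AM) is the catecholamine-releasing centre of the adrenal, and the superior cervical ganglion (SCG) of the neck holds sympathetic nerve cells. The mice were wild-type C57B6 of both sexes, 2 months old, with no treatment named in the labels, and gave RNA for 3 CB, 4 AM and 4 SCG arrays. A CB sample held tissue of 10 mice and a sample of either other tissue that of 3 mice, so each replicate is a pool. Values are the log2 expression values that the authors made with RMA. A difference of 1 on this scale is a 2-fold difference. A gene was called between tissues at an adjusted p under 0.05 from limma and a difference of at least 2-fold. The background bound is the value under which 95% of 540 vomeronasal receptor and keratin-associated protein genes lay, families taken as silent in these organs. It was 5.41 in CB, 5.36 in AM and 5.45 in SCG.

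Whole tissue was hybridised, so fewer cells of a type and less RNA per cell cannot be told apart in any value below. Markers of the labelled tissues were present: the mean level of 8 sympathetic neuron genes was 11.31 to 13.47 on CB arrays, 10.34 to 10.76 on AM arrays and 15.49 to 15.93 on SCG arrays. Adrenal cortex transcripts came with AM, with 7 such genes at a mean level of up to 16.53, where CB arrays were at 4.91 to 5.28 and SCG arrays at 4.80 to 5.29. The CB arrays differed from each other in neuron markers, with 13.47 on replicate 1, 11.31 on replicate 2 and 12.52 on replicate 3. The 8 chromaffin or glomus cell genes had a mean level of 13.21 to 14.15 on CB arrays, 16.31 to 16.54 on AM arrays and 11.95 to 12.39 on SCG arrays.

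Chemokines are small secreted proteins that bind heparan sulfate on cell surfaces and form gradients along which leukocytes move. They signal through receptors coupled to inhibitory G proteins. CC and CXC ligands are named after the spacing of their first cysteines, and several ligands share a receptor. Inflammatory members are induced by cytokines, while homeostatic members such as Cxcl12 are made in resting tissue. Atypical receptors bind chemokines without G protein signalling and remove or transport them.

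Promoters are shown for Cxcl12 as a member high in CB, Cxcl14 for AM, and Cxcr4 and Ackr1 for SCG. The tissue patterns of these genes are the clearest of the family for which a promoter was at hand. Ccl11 had a higher CB mean than Cxcl12 (12.53 against 10.49) and a larger CB minus AM difference (6.69 against 3.27). No promoter sequence was at hand for Ccl11. The 4 promoters printed here have the same layout. Each runs from 250 bases before to 50 bases after the start of the gene in RefSeq (GRCm38.p6), written along the gene's own strand. Capitals mark matches on either strand to any of 6 motifs: the hypoxia-inducible factor core ACGTG, the TATA box TATAAA, an NF-kB-like motif (GGG and TTTCC with any 2 bases between), the STAT-like TTCNNNGAA, an interferon-response-like motif (GAAA and GAAA with any 2 bases between) and the GC box GGGCGG.
Cxcl12, chr6:117168285-117168584, plus strand: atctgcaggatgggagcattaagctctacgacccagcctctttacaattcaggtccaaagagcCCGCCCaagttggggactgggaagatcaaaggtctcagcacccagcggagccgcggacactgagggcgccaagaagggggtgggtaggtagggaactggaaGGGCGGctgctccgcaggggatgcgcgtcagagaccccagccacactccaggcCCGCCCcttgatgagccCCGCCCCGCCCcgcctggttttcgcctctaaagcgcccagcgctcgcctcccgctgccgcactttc
Cxcl14, chr13:56296502-56296801, minus strand: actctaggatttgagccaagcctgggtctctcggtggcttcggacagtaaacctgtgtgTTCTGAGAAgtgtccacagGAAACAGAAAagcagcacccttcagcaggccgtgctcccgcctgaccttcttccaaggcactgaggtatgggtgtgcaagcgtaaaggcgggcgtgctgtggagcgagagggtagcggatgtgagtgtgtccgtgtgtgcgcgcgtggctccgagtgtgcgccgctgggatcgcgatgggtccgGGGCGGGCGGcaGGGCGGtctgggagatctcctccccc
Cxcr4, chr1:128592250-128592549, minus strand: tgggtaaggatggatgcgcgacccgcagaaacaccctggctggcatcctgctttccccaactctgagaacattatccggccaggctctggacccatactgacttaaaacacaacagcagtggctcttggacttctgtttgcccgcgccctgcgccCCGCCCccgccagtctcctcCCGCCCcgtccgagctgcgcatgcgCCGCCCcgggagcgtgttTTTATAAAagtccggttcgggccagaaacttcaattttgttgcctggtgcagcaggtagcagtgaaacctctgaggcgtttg
Ackr1, chr1:173333454-173333753, minus strand: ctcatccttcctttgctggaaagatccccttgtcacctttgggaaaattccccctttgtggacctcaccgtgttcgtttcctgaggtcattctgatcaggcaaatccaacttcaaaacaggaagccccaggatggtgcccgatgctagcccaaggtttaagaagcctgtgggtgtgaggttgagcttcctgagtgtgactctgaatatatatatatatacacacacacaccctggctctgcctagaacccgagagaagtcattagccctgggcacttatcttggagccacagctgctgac

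The Cxcl12 promoter held 5 GC boxes, of which a pair overlaps, and the Cxcl14 promoter held 3, of which a pair overlaps. The Cxcr4 promoter held 3 GC boxes and TATAAA on both strands over shared bases. The Cxcl14 promoter also held 1 STAT-like and 1 interferon-response-like match, and the Ackr1 promoter held none of the 6 motifs. Cxcl12, Cxcl14 and Cxcr4 had 20, 22 and 20 CG dinucleotides, while Ackr1 had 4. Of 32851 promoters of this length, 35.7% held a GC box, 13.6% TATAAA, 19.6% ACGTG, 8.3% the STAT-like motif, 3.44% the interferon-response-like motif and 1.63% the NF-kB-like motif. Of the 39 members with a promoter sequence, 9 held a GC box, 11 TATAAA, 6 ACGTG, 3 the STAT-like motif, 3 the interferon-response-like motif and 6 the NF-kB-like motif. A member was counted when any of its promoters held the motif, while the shares are per promoter, so the units differ. The NF-kB-like matches were in Ccl20, Ccl9, Ccr3, Cxcl1, Cxcl2 and Cxcl3. A match is a run of letters and not a shown binding site.

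Most of the family was in the background range. In all, 29 of the 53 members had a mean under the bound in every tissue, and 24 (45.3%, against 58.5% of all named genes) were above it in at least 1 tissue, 23 of them in CB, 19 in AM and 17 in SCG. The share of all named genes above the bound was 56% in CB, 54.1% in AM and 54.2% in SCG. Of the members above it, Ccl25 read 6.38 and Ccl2 read 5.75 on at least 1 array of every tissue. Whether such repeated values are signal was not tested. The members in the background range were the CC ligands Ccl1, Ccl4, Ccl7, Ccl8, Ccl17, Ccl20, Ccl22, Ccl26 and Ccl28, the CXC ligands Cxcl1, Cxcl2, Cxcl3, Cxcl5, Cxcl10, Cxcl11 and Cxcl15, the lymphocyte attractant Xcl1, the receptors Ccr3, Ccr4, Ccr6, Ccr8, Ccr9, Ccr10, Cxcr1, Cxcr2, Cxcr3, Cxcr5 and Cxcr6, and the atypical receptor Ackr4. Their tissue means lay between 3.82 and 5.40, single arrays between 3.48 and 5.71, and none was called in any comparison. Among them are Cxcl1, Cxcl2 and Cxcl5, which attract neutrophils, and the neutrophil receptors Cxcr1 and Cxcr2. Of 6 neutrophil markers 1 was above the bound in each tissue, and of 7 T and NK cell markers 1 was above it in CB, 2 in AM and none in SCG. RefSeq lists Cxcl11 as a transcribed pseudogene in this assembly.

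**Figure D1:**
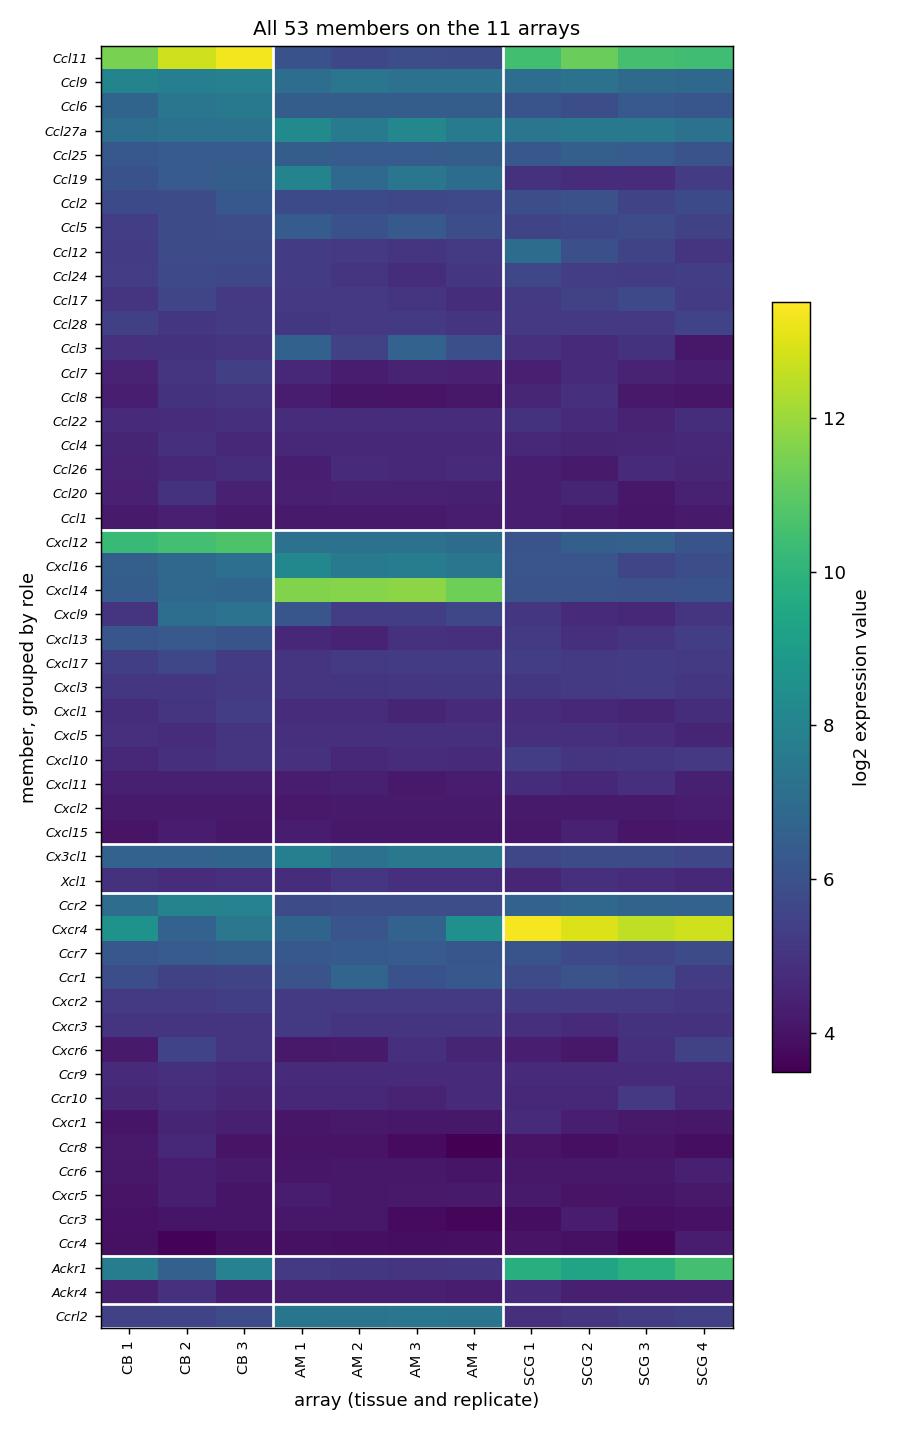
Log2 expression values of the 53 members (rows, grouped by role and separated by white lines) on the 11 arrays (columns, by tissue and replicate), as a colour scale. Most rows are dark on all arrays, and Ccl11, Cxcl12, Cxcl14, Cxcr4 and Ackr1 stand out in particular tissues.

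Between CB and AM, 5 members were called higher in CB (Ccl11, Cxcl12, Cxcl13, Ccr2 and Ackr1) and 4 lower (Cxcl14, Ccl19, Ccl3 and Ccrl2), 9 of 53 (17%), where 11% of all named genes were called, 6.06% higher and 4.95% lower. Between CB and SCG, 6 were higher in CB (Ccl11, Ccl6, Ccl19, Cxcl9, Cxcl12 and Cxcl13) and 2 lower (Cxcr4 and Ackr1), 8 of 53 (15.1%), against 13.9% of all genes, 5.61% higher and 8.28% lower. Between AM and SCG, 6 were higher in AM (Cxcl14, Cxcl16, Cx3cl1, Ccl3, Ccl19 and Ccrl2) and 3 lower (Ccl11, Cxcr4 and Ackr1), 9 of 53 (17%), against 13.2% of all genes, 5.72% higher and 7.5% lower. The 29 members in the background range had no call. Among the 24 members above the bound, 37.5% were called for CB minus AM, 33.3% for CB minus SCG and 37.5% for AM minus SCG, where 18.7%, 23.7% and 22.5% of the 17648 genes above the bound were called. A gene that passes the bound through its high tissue alone is more likely to be called, so these shares are a description, and none was tested. The median member differed by 0.08 for CB minus AM, 0.14 for CB minus SCG and 0.00 for AM minus SCG, where the medians over all genes were 0.05, -0.02 and -0.08. The 3 comparisons share arrays, so their counts are not independent. Ccl11, Cxcl12 and Cxcl13 were higher in CB than in both other tissues (3 of 53, and 2.42% of all genes). Cxcl14, Ccl19, Ccl3 and Ccrl2 were higher in AM than in both others (4 of 53, and 2.45% of all genes), and Cxcr4 and Ackr1 were higher in SCG than in both others (2 of 53, and 5.07% of all genes). Ccl11 and Ackr1 were lower in AM than in both others (2.68% of all genes), and Ccl19 was lower in SCG than in both (2.28%). No member was called lower in CB than in both others, which was the case for 1.68% of all genes.

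**Figure D2:**
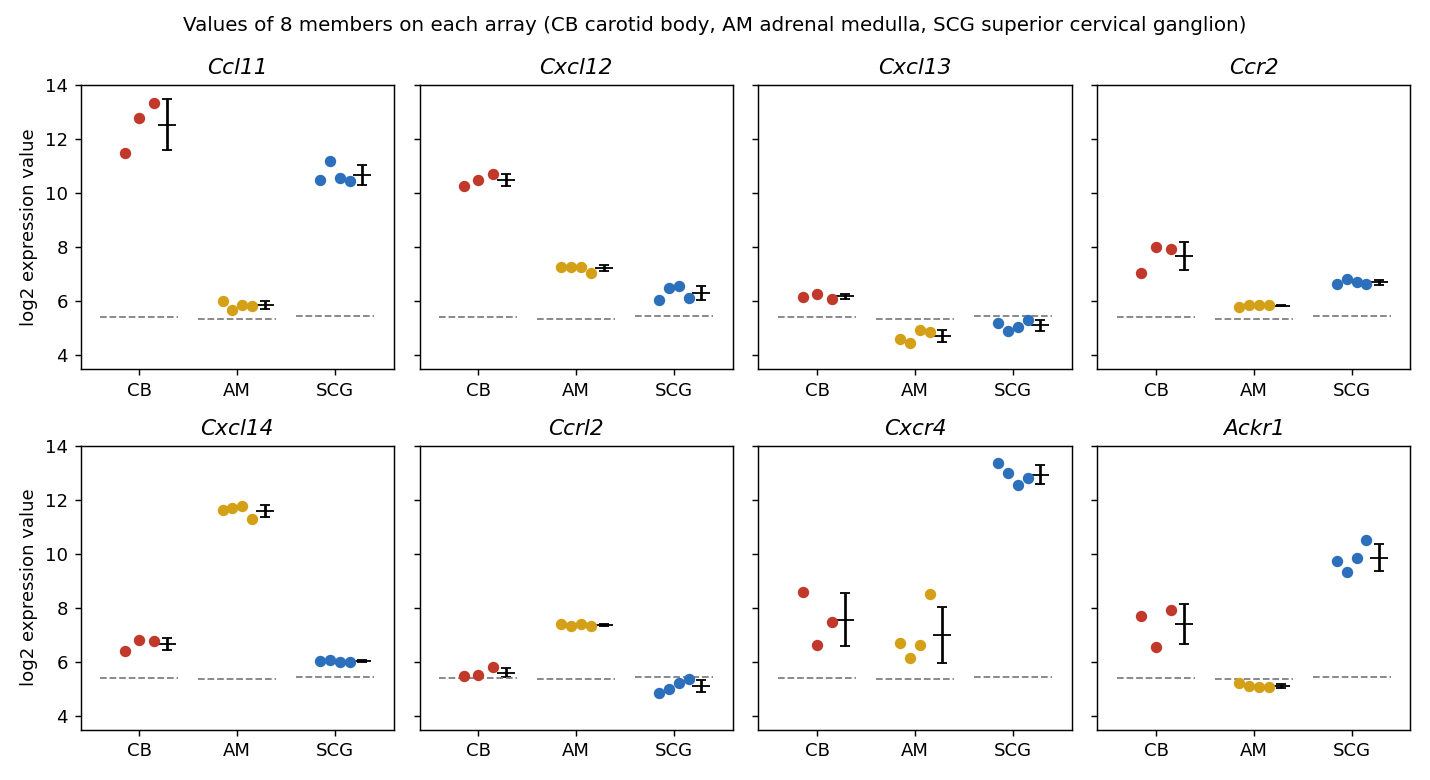
Log2 expression values of 8 members on each array (points), with the mean ± SD beside them and the background bound of each tissue as a dashed line. Ccl11, Cxcl12, Cxcl13 and Ccr2 are highest on the 3 CB arrays, Cxcl14 and Ccrl2 on the 4 AM arrays, and Cxcr4 and Ackr1 on the 4 SCG arrays.

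Among the CC ligands, Ccl11 separated the tissues most. Ccl11, or eotaxin, attracts eosinophils through the receptor Ccr3. It read 11.49, 12.77 and 13.34 on the CB arrays, 6.02, 5.67, 5.87 and 5.82 on AM arrays, and 10.48, 11.20, 10.56 and 10.45 on the SCG arrays. The groups did not overlap, and AM arrays lay just above the bound. CB was 103-fold higher than AM (log2 6.69, SE 0.36, limma adjusted p = 2.51e-07) and 3.63-fold higher than SCG (log2 1.86, adjusted p = 0.00179). AM was 28.3-fold lower than SCG (log2 -4.82, adjusted p = 6.91e-07). CB replicate 1 was the lowest of its group, and without it the differences from AM and SCG were 7.21 and 2.38, while without replicate 3 the difference from SCG was 1.46.

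Genes of its receptor and of eosinophils were in the background range. Ccr3 averaged 4.03 ± 0.04 in CB, 3.94 ± 0.23 in AM and 4.00 ± 0.18 in SCG (SD, n = 3, 4 and 4), under the bound in each. All 4 eosinophil markers (Siglecf, Epx, Prg2 and Ccr3) were under the bound in all tissues. Mast cell markers did differ, with a mean level over 7 genes of 7.80 to 8.59 on CB arrays, 4.79 to 4.97 on AM arrays and 5.45 to 5.70 on SCG arrays. Of the 7, 5 were called higher in CB than in AM, and 4 higher and 1 lower in CB than in SCG. Fibroblast markers differed as well. The mean level of 8 such genes was 13.18 to 13.44 in CB, 8.27 to 8.41 in AM and 9.45 to 9.76 in SCG, and all 8 were called higher in CB than in either other tissue. The part of these cell types in the Ccl11 values was not tested. Ccl24, another eotaxin, averaged 5.57 ± 0.22 in CB, 5.03 ± 0.18 in AM and 5.40 ± 0.17 in SCG and was not called.

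In the RefSeq assembly Ccl11 lies on chromosome 11 in a run of 6 neighbouring chemokine genes, in the order Ccl2, Ccl7, Ccl11, Ccl12, Ccl8 and Ccl1. The other 5 genes of the run were not called in any comparison. Ccl2, which attracts monocytes through Ccr2, averaged 5.94 ± 0.29 in CB, 5.72 ± 0.05 in AM and 5.79 ± 0.20 in SCG. Ccl12, a mouse ligand of Ccr2, averaged 5.64 ± 0.30 in CB, 5.15 ± 0.08 in AM and 5.89 ± 0.84 in SCG. The SCG spread of Ccl12 came from values of 7.02, 5.96, 5.53 and 5.05, and without SCG replicate 4 it was called lower in AM than in SCG (log2 -1.02, adjusted p = 0.0254). Ccl7, Ccl8 and Ccl1 were in the background range in all tissues.

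**Figure D3:**
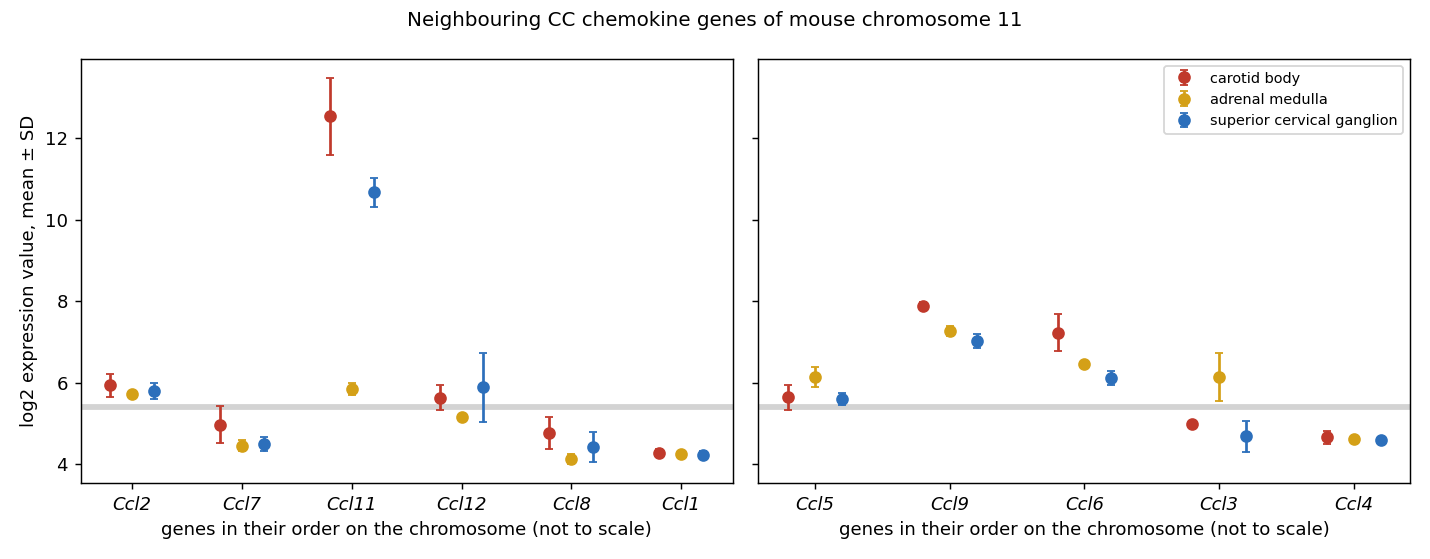
Mean ± SD of log2 expression values in each tissue for 2 runs of neighbouring CC chemokine genes on chromosome 11, in chromosome order, with the span of the background bounds shaded grey. In the left run Ccl11 alone was called, and in the right run Ccl3 is above the bound in AM alone.

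A second run on chromosome 11 holds Ccl5, Ccl9, Ccl6, Ccl3 and Ccl4. Ccl9 and Ccl6 are ligands of Ccr1 made mainly by myeloid cells. Ccl6 read 6.71, 7.43 and 7.54 in CB, 6.45, 6.46, 6.45 and 6.45 in AM, and 6.11, 5.89, 6.30 and 6.16 in SCG. Every CB array lay above every other array, the nearest being replicate 1. Ccl6 was 2.16-fold higher in CB than in SCG (log2 1.11, adjusted p = 0.000464; 0.95 and no longer called without CB replicate 3). It differed by 0.77 from AM, under the 2-fold limit, and by 1.03 without CB replicate 1, which then passed it. Ccl9 averaged 7.89 ± 0.10 in CB, 7.27 ± 0.13 in AM and 7.03 ± 0.17 in SCG. Its differences of 0.62 from AM (adjusted p = 0.00105) and 0.86 from SCG (adjusted p = 8.39e-05) were both under 2-fold.

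Ccl3, an inflammatory ligand of Ccr1, had another pattern. It averaged 4.99 ± 0.06 in CB and 4.69 ± 0.38 in SCG, both under the bound, and read 6.60, 5.42, 6.63 and 5.92 on AM arrays. Ccl3 was at least 1.67-fold lower in CB than in AM (fitted log2 -1.16, adjusted p = 0.011) and at least 1.62-fold higher in AM than in SCG (fitted log2 1.45, adjusted p = 0.00137). Without AM replicate 3 the first difference was -0.99 and no longer called. The cytokine Il1b was called in the same directions, at 5.22 ± 0.22 in CB, 6.37 ± 0.62 in AM and 4.99 ± 0.20 in SCG. Ccl5, which attracts T cells and monocytes, averaged 5.64 ± 0.30 in CB, 6.15 ± 0.25 in AM and 5.60 ± 0.15 in SCG. Its differences of -0.50 and 0.55 between AM and the others stayed under 2-fold (adjusted p = 0.0409 for CB minus AM and 0.0169 for AM minus SCG).

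Of the homeostatic CC ligands Ccl19 was called, which guides dendritic cells and T cells through Ccr7. Ccl19 read 6.02, 6.39 and 6.46 in CB, 7.98, 6.92, 7.42 and 7.04 in AM, and 4.97, 4.75, 4.78 and 5.23 in SCG. The tissues did not overlap, and the SCG was under the bound. Ccl19 was at least 1.79-fold higher in CB than in SCG (fitted log2 1.36, adjusted p = 0.000946) and at least 3.70-fold higher in AM than in SCG (fitted log2 2.41, adjusted p = 6.69e-06). The CB value was 2.07-fold lower than that of AM (log2 -1.05, adjusted p = 0.00616). That call was lost on leaving out CB replicate 1 (-0.91) or AM replicate 1 (-0.83) and with array weights (-0.92). The row of Ccl19 lies on an unlocalised scaffold of chromosome 4 and the gene has near-identical copies, so its signal may be shared with them.

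No difference of Ccl27a or Ccl25 reached 2-fold in the rows that pair with 1 symbol. Ccl27a, a skin-homing ligand of Ccr10 with near-identical copies, averaged 7.20 ± 0.09 in CB, 7.92 ± 0.33 in AM and 7.45 ± 0.13 in SCG, and its largest difference was -0.71 for CB minus AM (adjusted p = 0.00546). The 5 further clusters that list Ccl27a beside other symbols, which the rule leaves out, had CB minus AM differences of -0.98 to -2.38 on the log2 scale, over 2-fold in 4 of the 5, which were not tested. Ccl25, a thymic and intestinal ligand of Ccr9, averaged 6.34 ± 0.07 in CB, 6.41 ± 0.04 in AM and 6.30 ± 0.19 in SCG. Its adjusted p was 0.371 or more in each comparison. Their receptors Ccr10 and Ccr9 were in the background range everywhere.

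Among the CXC ligands, Cxcl12 led in CB. Cxcl12, or stromal cell-derived factor, holds stem cells and leukocytes in place through Cxcr4 and is also bound by Ackr3. It read 10.27, 10.49 and 10.70 on the CB arrays, 7.28, 7.28, 7.28 and 7.05 on AM arrays, and 6.04, 6.51, 6.56 and 6.11 on the SCG arrays. The groups were separate, with the CB far above both others. CB was 9.63-fold higher than AM (log2 3.27, SE 0.15, adjusted p = 7.14e-08) and 18.1-fold higher than SCG (log2 4.18, SE 0.15, adjusted p = 1.96e-08). AM exceeded SCG by 0.91, under the limit (adjusted p = 0.000325), and by 1.00 with arrays centred on their medians, which just passed it. The mean level of 7 pericyte and smooth muscle genes had the same tissue order. It was 12.39 to 12.90 in CB, 8.58 to 8.72 in AM and 7.39 to 7.67 in SCG. Of the 7, 6 were called higher in CB than in AM and all 7 higher in CB than in SCG. Single genes departed from that order. Pdgfrb averaged 11.71 in CB and 12.07 in AM, and Cspg4 averaged 5.43 in AM and 6.20 in SCG. Cnn1 was under the bound in both AM and SCG. All 8 fibroblast genes were also called higher in CB than in either other tissue. The part of these cell types in the Cxcl12 values was not tested.

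Cxcl13 and Cxcl9 also had calls towards CB. Cxcl13, which draws B cells through Cxcr5, read 6.17, 6.28 and 6.08 in CB, while all 8 other arrays lay under the bound of their tissue. It was at least 1.77-fold higher than in AM (fitted log2 1.46, adjusted p = 1.45e-05) and at least 1.66-fold higher than in SCG (fitted log2 1.07, adjusted p = 0.000108). The last difference fell just under the limit without SCG replicate 2 (adjusted p = 0.000332). Its receptor Cxcr5 was in the background range, as were all 4 measured B cell markers. Cxcl9, an interferon-gamma-induced ligand of Cxcr3, read 5.04, 7.12 and 7.32 in CB, 6.16, 5.30, 5.36 and 5.64 in AM, and 5.08, 4.70, 4.64 and 5.02 in SCG. CB replicate 1 lay under the bound and within the range of SCG. Cxcl9 was called higher in CB than in SCG (at least 2.06-fold, fitted log2 1.63, adjusted p = 0.0183), and the call was lost when CB replicate 2 (adjusted p = 0.0883) or replicate 3 (0.0877) was left out or replicates were blocked (0.054). Without CB replicate 1 the difference was 2.36. It was not called against AM (0.88, adjusted p = 0.194), where it passed without CB replicate 1 (1.60, adjusted p = 0.000509).

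In AM the leading member was Cxcl14, a homeostatic chemokine of epithelia that has no settled receptor. Cxcl14 read 6.40, 6.82 and 6.78 in CB, 11.61, 11.68, 11.77 and 11.28 in AM, and 6.04, 6.07, 5.99 and 6.01 in SCG. The AM arrays stood far above all others, and no groups overlapped. It was 30.2-fold lower in CB than in AM (log2 -4.92, SE 0.13, adjusted p = 9.68e-10) and 47.1-fold higher in AM than in SCG (log2 5.56, SE 0.12, adjusted p = 2.25e-10). All 7 adrenal cortex markers were called in the same directions, so which adrenal cells held the transcript cannot be told apart here. Cxcl16 is a membrane-bound ligand of Cxcr6 that is shed by proteases. It averaged 6.86 ± 0.32 in CB, 7.72 ± 0.32 in AM and 5.95 ± 0.25 in SCG, and AM was 3.42-fold higher than SCG (log2 1.77, adjusted p = 2.36e-05). CB lay between, with differences of -0.86 and 0.91 from AM and SCG. The first passed the limit without CB replicate 3 (-1.02) or with median centring (-1.02), and the second without CB replicate 1 (1.07) or with array weights (1.07). Cxcl17, a mucosal chemokine, had a mean just above the bound in CB alone, at 5.42 ± 0.19, and was not called. Its CB arrays read 5.36, 5.63 and 5.27, of which 1 lay above the bound of 5.41.

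Cx3cl1, or fractalkine, is a membrane-anchored chemokine of neurons and endothelium that signals to macrophages and microglia. It read 6.65, 6.65 and 6.74 in CB, 7.81, 7.24, 7.50 and 7.49 in AM, and 5.63, 5.77, 5.82 and 5.63 in SCG. The order of tissues was the same as for Cxcl16 and without overlap. AM was 3.49-fold higher than SCG (log2 1.80, adjusted p = 2.72e-07). CB differed by -0.83 from AM and by 0.97 from SCG, both under 2-fold, and by 1.01 from SCG without SCG replicate 3. Its receptor Cx3cr1, which is outside the family as defined here, was above the bound in all tissues and was not called, with differences of -0.31 from AM and -0.30 from SCG in CB (adjusted p = 0.231 and 0.224). Blood endothelial markers had a mean level over 7 genes of 11.01 to 11.09 in CB, 11.42 to 11.77 in AM and 7.36 to 7.70 in SCG. Of the 7, 3 were called higher and 4 lower in CB than in AM, and all 7 higher in CB than in SCG. Their part in the Cx3cl1 and Cxcl16 values was not tested.

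**Figure D4:**
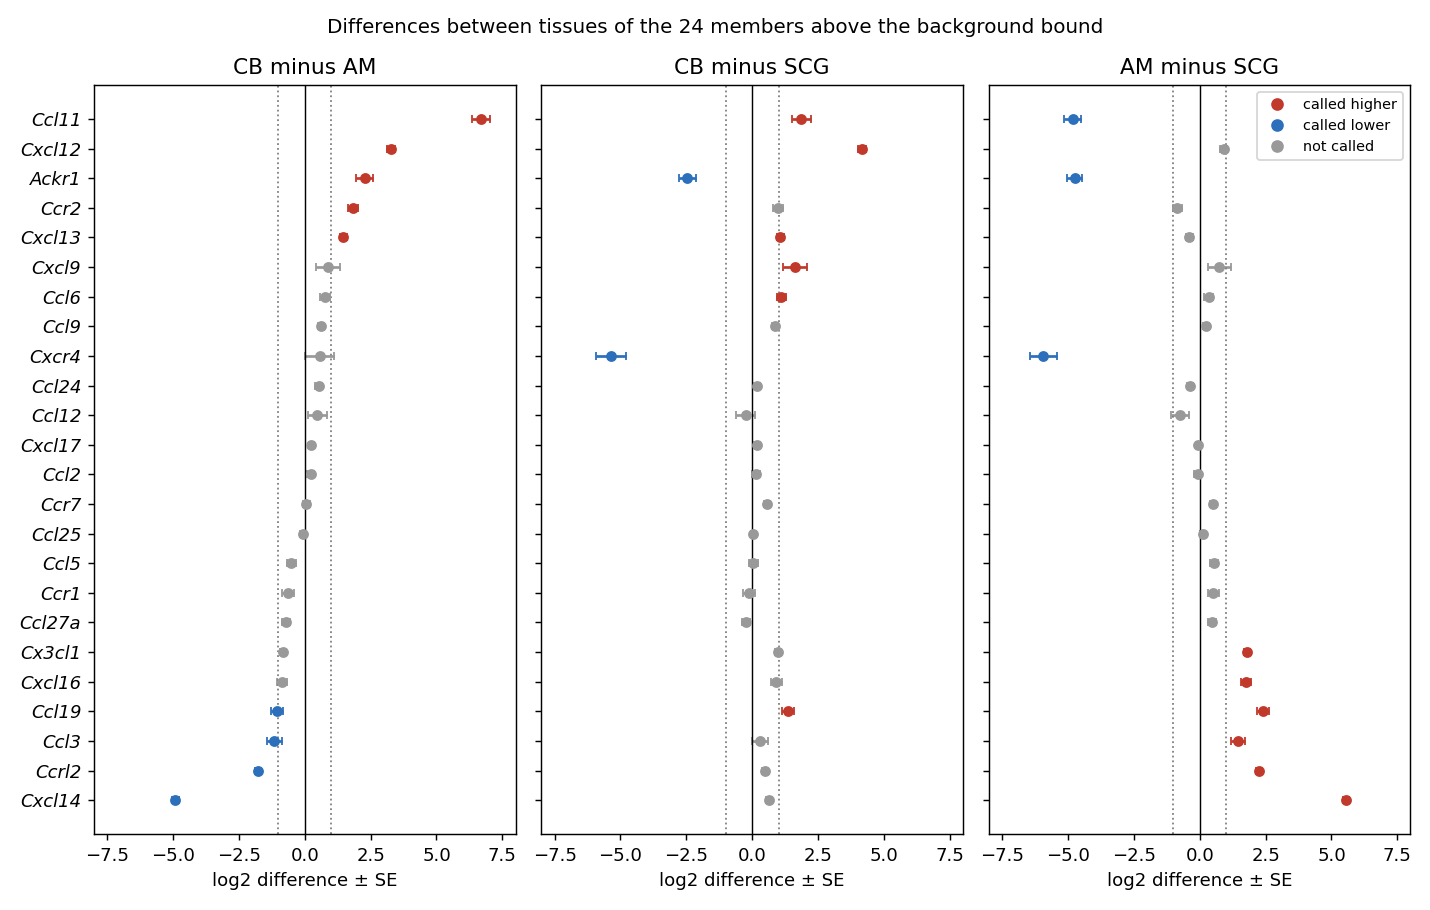
Log2 differences ± SE between tissues for the 24 members above the background bound in at least 1 tissue, with members as rows, dotted lines at -1 and 1, and colour for called higher, called lower or not called. Ccl11 and Cxcl12 lie farthest right for CB minus AM, and Cxcr4, Ccl11 and Ackr1 lie farthest left for AM minus SCG.

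Of the 15 conventional receptors, 11 were in the background range and only Cxcr4 and Ccr2 were called. Cxcr4, the signalling receptor of Cxcl12, read 8.60, 6.63 and 7.48 in CB, 6.71, 6.14, 6.65 and 8.51 in AM, and 13.38, 12.99, 12.56 and 12.79 in SCG. The SCG arrays were far above all others, while CB and AM overlapped. Cxcr4 was 40.9-fold lower in CB than in SCG (log2 -5.36, SE 0.56, adjusted p = 2.73e-05) and 60.8-fold lower in AM than in SCG (log2 -5.93, SE 0.52, adjusted p = 4.79e-06). CB minus AM was 0.57 (SE 0.56, adjusted p = 0.501). The SD was 0.99 in CB and 1.04 in AM, from a high replicate 1 and a high replicate 4. Within CB, replicates 1, 3 and 2 had the highest, middle and lowest values of both Cxcr4 and the sympathetic neuron markers. The chromaffin or glomus cell, glia and blood endothelial marker levels ranked the CB arrays in the same order, and the other cell marker lists did not. In AM, replicate 4 had the lowest neuron marker level of its group. All 8 neuron genes were called lower in CB than in SCG, and 7 of 8 lower in AM than in SCG. The part of neurons or of other cell types in the Cxcr4 values was not tested.

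Ccr2, the receptor that brings monocytes into tissue, read 7.06, 7.99 and 7.93 in CB, 5.80, 5.84, 5.85 and 5.86 in AM, and 6.63, 6.83, 6.70 and 6.63 in SCG. The groups did not overlap. It was 3.54-fold higher in CB than in AM (log2 1.82, SE 0.19, adjusted p = 2.82e-05). Its difference of 0.97 from SCG (adjusted p = 0.00187) passed the limit without CB replicate 1 (1.27), without SCG replicate 2 (1.01), with array weights (1.08) or after repeated quantile normalization (1.04). AM differed from SCG by -0.86, under the limit. The mean level of 11 macrophage genes was 8.38 to 8.85 in CB, 8.47 to 8.62 in AM and 7.41 to 8.18 in SCG, and 2 of them were called higher and 2 lower in CB than in AM. Of these, Csf1r was not called in any comparison (9.18 ± 0.11 in CB, 9.07 ± 0.02 in AM and 9.03 ± 0.22 in SCG), nor was Adgre1. Cd163, a marker of resident macrophages, was called in the same direction as Ccr2, at 8.49 ± 0.30 in CB and 6.18 ± 0.15 in AM. So was Lyve1 (log2 1.91 for CB minus AM), while C1qb and Cd68 were called in the opposite direction (-2.14 and -1.29). Of 6 dendritic cell markers, Cd209a alone was called in the direction of Ccr2, at 7.65 ± 0.23 in CB and 6.41 ± 0.29 in AM. Their part in the Ccr2 values was not tested.

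Ccr7 and Ccr1 were above the bound in all tissues with no call. Ccr7, the homing receptor for Ccl19, averaged 6.36 ± 0.15 in CB, 6.29 ± 0.08 in AM and 5.80 ± 0.21 in SCG. The SCG was lower than both others by under 2-fold (differences of 0.56 for CB, adjusted p = 0.00381, and 0.49 for AM, adjusted p = 0.00521). Ccr1, a receptor of Ccl3, Ccl5, Ccl6 and Ccl9, averaged 5.63 ± 0.21 in CB, 6.26 ± 0.35 in AM and 5.75 ± 0.37 in SCG, with an adjusted p of 0.0569 or more.

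The atypical receptor Ackr1, known from red cells and the endothelium of small veins, binds many inflammatory CC and CXC ligands. It read 7.71, 6.56 and 7.92 in CB, 5.22, 5.11, 5.06 and 5.09 in AM, and 9.75, 9.33, 9.86 and 10.51 in SCG. All AM arrays lay under the bound and no groups overlapped. Ackr1 was at least 4.12-fold higher in CB than in AM (fitted log2 2.28, adjusted p = 0.000291) and 5.52-fold lower in CB than in SCG (log2 -2.46, adjusted p = 0.000125). AM was at least 22.7-fold lower than SCG (fitted log2 -4.75, adjusted p = 3.44e-07). All 7 blood endothelial genes were called lower in SCG than in CB, and 6 of 7 lower in SCG than in AM. The remaining gene, Vwf, was lower in AM than in SCG by under 2-fold (log2 -0.78, adjusted p = 2e-05). The part of endothelium in the Ackr1 values was not tested.

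Ccrl2, a receptor-like protein that presents the attractant chemerin rather than signalling, read 5.49, 5.53 and 5.81 in CB, 7.40, 7.35, 7.41 and 7.34 in AM, and 4.87, 5.02, 5.24 and 5.38 in SCG. AM arrays varied little and stood apart. Ccrl2 was 3.40-fold lower in CB than in AM (log2 -1.77, SE 0.12, adjusted p = 1.58e-06). It was at least 3.80-fold higher in AM than in SCG (fitted log2 2.25, adjusted p = 6.26e-08), where all arrays were under the bound. CB minus SCG was 0.48 (adjusted p = 0.00982), under the limit.

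Ligands can be set beside their receptors. Cxcl12 was called higher in CB than in both other tissues, and Cxcr4 was called higher in SCG than in both others. The ligands Ccl11, Cxcl13 and Cxcl9 had calls towards CB, while Ccr3, Cxcr5 and Cxcr3 were in the background range in all tissues. Ccr2 was higher in CB than in AM, while its ligands Ccl2, Ccl7 and Ccl12 were not called. Ccl19 and Ccr7 were both above the bound in CB and AM, and the differences of Ccr7 were smaller.

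Genes that act with chemokines include the signalling chain below the receptors, listed here with the receptors Cx3cr1 and Xcr1. Of 30 measured signalling genes, 4 were higher and 1 lower in CB than in AM, none was higher and 4 were lower in CB than in SCG, and 1 was higher and 6 were lower in AM than in SCG. Those higher in CB than in AM included Elmo1, which links receptors to the actin skeleton (log2 1.17), Rgs18, a brake on G proteins in blood cells (1.10), and the phospholipase Plcb3 (1.07), and the receptor kinase Grk5 was lower (-1.25). The G protein subunits Gng2 and Gnb1, Plcb3 and the receptor kinase Grk3 were lower in CB than in SCG, 4.01-fold for Gng2, 2.54-fold for Gnb1, 3.64-fold for Plcb3 and 3.61-fold for Grk3. Plcb3, Gng2, Grk3 and the inhibitory G protein subunit Gnai1 were lower in AM than in SCG (-2.94, -2.39, -2.07 and -1.93). The median differences of this list were 0.10, -0.01 and -0.10 in the order of comparisons above. In that order, 11%, 13.9% and 13.2% of all named genes were called in either direction. These shares also stand beside the counts of the lists that follow, and no list was tested as a set.

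Of 19 measured genes that cut or anchor chemokines, 1 was higher and 4 lower in CB than in AM, 1 higher and 2 lower in CB than in SCG, and 4 higher and 1 lower in AM than in SCG. Mmp2, a matrix protease able to cut Cxcl12, averaged 11.41 ± 0.35 in CB, 6.49 ± 0.15 in AM and 12.76 ± 0.47 in SCG, and was called in all 3 comparisons. The heparan sulfate enzyme Hs6st1 and the surface proteoglycans Gpc4 and Sdc2 were lower in CB than in AM (-2.19, -1.15 and -1.12). Hs6st1 was also lower in CB than in SCG (-1.80), while Gpc4 was higher (1.64). Gpc4, Sdc2 and the heparan sulfate enzyme Ext1 were higher in AM than in SCG (2.79, 2.08 and 1.36). The median differences of this list were 0.09, 0.29 and 0.09 in the same order of comparisons.

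Of 27 measured cytokines, cytokine receptors and transcription factors that act upstream of chemokines, 2 were higher and 2 lower in CB than in AM, 5 higher and none lower in CB than in SCG, and 3 higher and none lower in AM than in SCG. Il13ra1, a subunit of the receptor for interleukins that induce Ccl11, averaged 10.45 ± 0.18 in CB, 8.78 ± 0.07 in AM and 8.88 ± 0.09 in SCG. The interleukin-1 receptor Il1r1 averaged 8.96 ± 0.04 in CB, 7.34 ± 0.02 in AM and 6.70 ± 0.18 in SCG. Both were called higher in CB than in each other tissue. The interleukin genes Il4 and Il13 were under the bound in all tissues, and the receptor subunit Il4ra was above it in all and not called. The NF-kB inhibitor Nfkbia (1.92) and the NF-kB subunit Rela (1.62) were higher in CB than in SCG. The tumour necrosis factor receptor Tnfrsf1a was lower in CB than in AM (-1.40) and higher in AM than in SCG (2.57), as was Rela (1.79). The median differences of this list were 0.08, 0.13 and 0.02 in the same order of comparisons.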

How the data were processed

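Affymetrix mouse transcriptome arrays measured RNA of 3 CB, 4 AM and 4 SCG pools. The deposited values are log2 values, made by the authors with RMA and Expression Console (per the submitters' processing notes). Versions and genome build are not given in the sources used here, and log2 is the base that RMA uses. The highest value of each array was 19.65 to 19.93, above the 16 of a 16-bit scan, so a further scaling step is possible and folds are on the deposited scale. RMA's shared normalisation can shrink global differences between tissues, and the number of arrays limits the precision.

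Of 65956 transcript clusters, 30604 pair with 1 symbol, and the brightest cluster per gene left 30142 genes. RefSeq's GRCm38.p6 table gave 819 genes a newer symbol by Entrez identifier, and in it all 53 members were found. One limma fit (3.58.1 in R 4.3.3, lmFit and eBayes, tissue as the only factor) over all 11 arrays gave 3 contrasts with Benjamini-Hochberg adjustment over all genes. Where a tissue's mean was under its background bound, arrays below the bound were set to it, which makes the fold an "at least". Whether mice were shared between pools is not stated, so p-values measure the spread between these pools. The fit was tested on simulated data. Every member is accounted for, and members above the bound in a tissue are described in full. From the signalling, chemokine handling and upstream lists up to 4 called genes with the largest differences are named per contrast, and genes of the cell marker lists are named beside a member. The members and lists were chosen with earlier results of these data known. Alternatives were the replicate block, median centring, repeated quantile normalization, array weights, control features as a covariate, other sets of genes or rows, no limit on size, and leaving out each replicate.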

Additional observations from a re-analysis of the deposited data

Results flagged for a closer look

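Values of the 24 members above the background bound were examined for single arrays far from the others of their tissue, in AM and SCG (48 groups of 4 arrays, of which chance alone would mark about 5%). Such an array was found in 4 groups. Ccl11 read 11.20 on SCG replicate 2, against 10.45 to 10.56 on the other SCG arrays. Ccl6 read 6.46 on AM replicate 2, where the others were at 6.45, a gap of no practical size. Cxcl12 read 7.05 on AM replicate 4, where the others were at 7.28. For Ccl6 and Cxcl12 the other AM arrays had near-identical values, so any array that differs is marked. The rate of 5% does not apply to such groups. Cxcl17 read 4.99 on AM replicate 1, against 5.22 to 5.25 on the others. None of these gaps approached the tissue differences of Ccl11 or Cxcl12.

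A signal also lay outside the named genes. The array has 9 transcript clusters whose annotation lists 1 or more of the near-identical Ccl21 genes together with predicted genes, so no single gene can be named from them and they took no part in the comparisons. Ccl21 proteins guide dendritic cells and T cells through Ccr7. These clusters read 12.38 to 13.91 on CB arrays, 6.16 to 7.20 on AM arrays and 6.46 to 7.34 on SCG arrays. Their CB means exceeded those of AM by 6.45 to 6.84 and those of SCG by 6.23 to 6.52. The clusters list overlapping sets of genes and are not independent, and the difference was not tested. Lymphatic endothelial markers, a known source of Ccl21, had a mean level over 5 genes of 8.43 to 8.65 in CB, 8.08 to 8.28 in AM and 7.25 to 7.43 in SCG. Of these, 3 (Lyve1, Pdpn and Reln) were called higher in CB than in AM, and Lyve1 is also among the macrophage genes. The marker Prox1 was called lower in CB than in each other tissue, at 7.30 ± 0.20 in CB, 12.40 ± 0.05 in AM and 8.55 ± 0.28 in SCG. The part of lymphatic endothelium in this signal was not tested.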

How the results depend on the processing

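Counts were recomputed under 21 other settings and member differences under 20, all but the one with no limit on size. Of 26 called member differences, 21 kept their call and direction under all 20, 5 lost it under at least 1 (Ccl19 and Ccl3 for CB minus AM, and Ccl6, Cxcl13 and Cxcl9 for CB minus SCG), and 8 others were called only under another setting. No called difference changed direction. Without the 2-fold limit the counts were 10 higher and 8 lower for CB minus AM, 14 higher and 3 lower for CB minus SCG, and 10 higher and 8 lower for AM minus SCG, because differences under 2-fold then count. Leaving out each replicate in turn gave 5 to 7 higher and 3 to 5 lower for the first comparison, 4 to 8 higher and 2 lower for the second, and 6 higher and 3 to 4 lower for the third. The replicate number was also used as a block. Same-numbered arrays of different tissues deviated with correlations of -0.173 to 0.252, and differently numbered ones with -0.343 to 0.342. With so few pools these values cannot show whether same-numbered samples shared mice or processing. The replicate block gave 5 higher and 4 lower, 5 higher and 2 lower, and 6 higher and 3 lower, and it moved Cxcl9 to an adjusted p of 0.054 for CB minus SCG. Median centring shifted the median difference of all genes for CB minus AM to -0.10, against 0.05. With 3 or 4 pools per tissue, differences near 2-fold and members near the background bound are the least certain, and a member in the background range may still be expressed in few cells.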

Other observations

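Other clusters that list a chemokine symbol among several were left out as well. A cluster listing Ackr3 with its older symbol Cxcr7, a scavenger receptor of Cxcl12, averaged 6.67 ± 0.15 in CB, 7.33 ± 0.32 in AM and 5.53 ± 0.22 in SCG (SD, n = 3, 4 and 4). A cluster listing Ackr2 with its older symbol Ccbp2 averaged 5.53 ± 0.21 in CB, 5.22 ± 0.05 in AM and 5.21 ± 0.06 in SCG. The 5 clusters that list Ccl19 beside predicted genes or pseudogenes read 5.41 to 6.91 on CB arrays, 6.30 to 8.41 on AM arrays and 4.62 to 5.51 on SCG arrays. The 5 clusters that list Ccl27 copies read 6.32 to 8.90 on CB arrays, 7.56 to 11.11 on AM arrays and 6.27 to 9.51 on SCG arrays. Within each of these 5 clusters the CB mean was below the AM mean, with differences of -0.98 to -2.38 on the log2 scale, and below the SCG mean, with differences of -0.08 to -0.52. Within each Ccl19-listing cluster CB minus AM was -0.40 to -1.16 and CB minus SCG was 0.87 to 1.41. None of these values was tested.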
